A study of Mus musculus with 6 samples.

Results

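The nuclear genes that encode proteins of the mitochondrial ribosome were examined in ECs sorted from the livers of young and aged mice. The members were the rows of the raw count table whose symbol is Mrpl or Mrps followed by a number, with or without a letter a, b or c. This rule found 77 of 24421 gene symbols, of which 48 were Mrpl genes, named for the large subunit, and 29 were Mrps genes, named for the small subunit. All 77 passed the filter on low counts and were among the 14612 genes tested. The same 77 symbols were found in the FPKM table.

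The study compared the transcriptome of liver ECs between ages. RNA was taken from 50000 CD31+CD45- cells per sample, sorted by FACS from wild-type C57BL/6J mice. The 3 young mice were 10 weeks old, and the 3 aged mice were 127, 131 and 136 weeks old by the sample labels. As in the study, which used female mice and collected independent samples, the aged mice were treated as a single group. The labels name no treatment and no factor other than age. Each test measures the spread between these 6 samples.

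Mitochondria carry their own ribosome, which translates the few messenger RNAs of the mitochondrial genome, all of which encode membrane subunits of the respiratory chain and the ATP synthase. Its ribosomal RNAs come from the mitochondrial genome, whereas all of its proteins are nuclear gene products that are made in the cytosol and imported. Many of these proteins descend from bacterial ribosomal proteins, and others were added during the evolution of mitochondria. ECs in general draw most of their ATP from glycolysis, and those of the liver sinusoids are specialised in endocytosis.

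Total counts ranged from 23001556 to 31651817 per sample, and each member had between 116 and 2470 counts in every sample. CPM below are counts relative to the library's total, scaled by TMM factors, and FPKM are the values per exon length that the authors deposited. The sorted cells carried the endothelial markers at high levels, with Pecam1, which encodes CD31, at 1366 to 1635 CPM and Cdh5, which encodes VE-cadherin, at 241 to 469 CPM. The 9 endothelial markers together were lower in aged ECs, with sums of 12729 to 14151 CPM in young and 8890 to 10890 CPM in aged ECs, without overlap. Most of this fall lay in Stab2 and Kdr, with means of 3041 and 3507 CPM in young and 935 and 2237 CPM in aged ECs. Of the 9, 7 had a log2 fold change below 0, and Stab2, Kdr and Tek, receptors on ECs, were lower in each aged mouse than in each young one, with log2 fold changes of -1.70, -0.65 and -0.38. These 3 were named after their values were seen, and 8.33% of all genes tested were separated and lower in this way. Above 0 were Lyve1, at 0.58 with 1506 CPM in the 136-week-old mouse, and Pecam1, at 0.015, both with overlapping groups. Ptprc, which encodes CD45, was at 1.17 to 1.70 CPM in the young mice and at 7.57, 1.28 and 25.6 CPM in the 127-, 131- and 136-week-old mice. The 8 pan-leukocyte markers summed to 100.2 to 106 CPM in the young mice and to 115, 102 and 374 CPM in the aged mice, and all 8 had a higher fitted level in aged ECs. The 9 hepatocyte markers summed to 117 to 170 CPM in young and 76.6 to 94.1 CPM in aged ECs. By edgeR 0 of these markers passed at an adjusted p below 0.05. At an unadjusted p below 0.05, 2 endothelial and 5 hepatocyte markers were lower, against 4.32% of all genes, and 6 leukocyte markers higher, against 8.32%. By DESeq2 1 endothelial and 3 hepatocyte markers were called lower and 3 leukocyte markers higher, where DESeq2 called 4.42% of all genes. The part of the shift in these markers in the values of the members was not tested. In RNA of a whole sorted population, fewer cells of a type and less RNA per cell cannot be told apart.

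Another difference ran across the ages. Lars2 and Rn45s together took 4.68% to 5.53% of the counts in 4 libraries but 1.29% in young 3 and 0.960% in the 127-week-old mouse. The values of the members are therefore given for each mouse, and the comparison is also given within these sets of libraries.

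The promoters are shown first for those of the 9 members with separated groups, described below, that have no exon of another gene in the 250 bases before their start. The sequences are from RefSeq (GRCm38.p6) and end at the base before the annotated start of the gene. They are Mrps25 (chr6:92184024-92184273, minus strand), Mrps17 (chr5:129715247-129715496, plus strand), Mrpl39 (chr16:84735245-84735494, minus strand) and Mrpl22 (chr11:58171414-58171663, plus strand). Mrpl46 and Mrps11 lie head to head, and the 41 bases between their RefSeq starts (chr7:78783090-78783130, plus strand, in the direction of Mrps11) are given as a single stretch. Capitals mark an exact match to the motif of NRF1, a transcription factor of many nuclear genes for mitochondrial proteins.
Mrps25: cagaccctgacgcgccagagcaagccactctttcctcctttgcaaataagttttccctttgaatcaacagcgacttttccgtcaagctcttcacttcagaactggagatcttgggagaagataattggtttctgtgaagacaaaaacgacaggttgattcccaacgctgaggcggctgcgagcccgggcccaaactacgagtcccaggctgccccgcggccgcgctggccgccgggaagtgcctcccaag
Mrps17: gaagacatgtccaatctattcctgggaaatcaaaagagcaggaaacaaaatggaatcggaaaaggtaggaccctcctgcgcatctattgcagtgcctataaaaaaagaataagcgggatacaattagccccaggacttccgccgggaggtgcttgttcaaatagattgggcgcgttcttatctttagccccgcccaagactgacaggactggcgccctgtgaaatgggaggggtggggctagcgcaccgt
Mrpl39: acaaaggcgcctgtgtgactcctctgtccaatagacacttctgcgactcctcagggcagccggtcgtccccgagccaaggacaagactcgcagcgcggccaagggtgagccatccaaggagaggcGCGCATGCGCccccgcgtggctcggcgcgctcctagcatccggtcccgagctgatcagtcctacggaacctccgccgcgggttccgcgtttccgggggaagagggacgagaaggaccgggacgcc
Mrpl22: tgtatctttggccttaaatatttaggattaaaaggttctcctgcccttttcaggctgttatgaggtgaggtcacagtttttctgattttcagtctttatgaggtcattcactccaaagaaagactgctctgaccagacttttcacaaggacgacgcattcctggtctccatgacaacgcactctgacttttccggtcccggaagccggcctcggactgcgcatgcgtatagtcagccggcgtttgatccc
Mrpl46-Mrps11: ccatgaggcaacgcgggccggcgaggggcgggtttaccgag

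Exact matches to 5 motifs were counted on both strands in windows from 250 bases before to 50 bases after the start, which were given for 68 of the 77 members and for 27025 genes in all. The members without a window were Mrpl4, Mrpl13, Mrpl15, Mrpl19, Mrpl38, Mrpl54, Mrps28, Mrps34 and Mrps35. The NRF1 motif, the capital bases of the Mrpl39 promoter, was found in 3 members (4.41%), Mrpl39, Mrpl32 and Mrpl9, and in 1.07% of all windows. In the Mrpl39 window its first base lies 125 bases before the start. The ETS motif CCGGAAGT, which is bound by GABP, was found in 12 members (17.6%) and in 4.31% of all windows. The motif of YY1 was found in 5 members (7.35%), Mrps11, Mrpl35, Mrpl37, Mrps18a and Mrps27, and in 0.755% of all windows. The E-box CACGTG, to which Myc binds, was found in 5 members (7.35%), Mrpl2, Mrpl20, Mrpl36, Mrpl37 and Mrps18c, against 8.09% of all windows. The CRE TGACGTCA was found in 2 members (2.94%), Mrpl16 and Mrpl49, against 2.03% of all windows. These motifs do not contain one another. Among windows of genes that were tested in these ECs the shares were 2.14% for NRF1, 8.14% for ETS, 1.61% for YY1, 11.2% for the E-box and 3.33% for the CRE.

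The levels of the members were compared per exon length, in FPKM. The mean over the 6 mice ranged from 2.79 FPKM for Mrpl19 to 118 FPKM for Mrpl33, a range of 42.2-fold. The median over the members was 28.0 FPKM, with 28.5 FPKM for the Mrpl genes and 24.1 FPKM for the Mrps genes. Of the 77 members, 54 lay between 10 and 50 FPKM, 13 above 50 FPKM and 10 below 10 FPKM, and 74 lay above 6.76 FPKM, the median of all genes tested. The cytosolic ribosomal protein genes had a median of 335 FPKM and the nuclear subunits of oxidative phosphorylation a median of 152 FPKM.

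The 3 highest members all encode small proteins with bacterial counterparts. Mrpl33 had 110 ± 37.5 FPKM in young and 125 ± 37.8 FPKM in aged ECs (mean ± SD, n = 3 each, as in all values of this form). Mrps21 had 128 ± 26.6 FPKM in young and 106 ± 6.07 FPKM in aged ECs. Mrps18c had 113 ± 27.0 FPKM in young and 105 ± 22.5 FPKM in aged ECs. The levels of these 3 genes did not differ beyond their spread, and neither did the ages within each gene. At the low end, Mrpl19, whose protein takes part in a bridge between the subunits, had 2.89 ± 0.298 FPKM in young and 2.69 ± 0.116 FPKM in aged ECs. The next lowest were Mrpl11, at the base of the stalk, with a mean of 6.20 FPKM, and Mrps22, a small subunit protein mutated in a human mitochondrial disease, with 6.71 FPKM. Mrpl19 shares 1962 exonic bases with another annotated gene on the opposite strand, and a gene length that includes shared or rarely used exons changes an FPKM, so that this order is that of the deposited values.

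**Figure D1:**
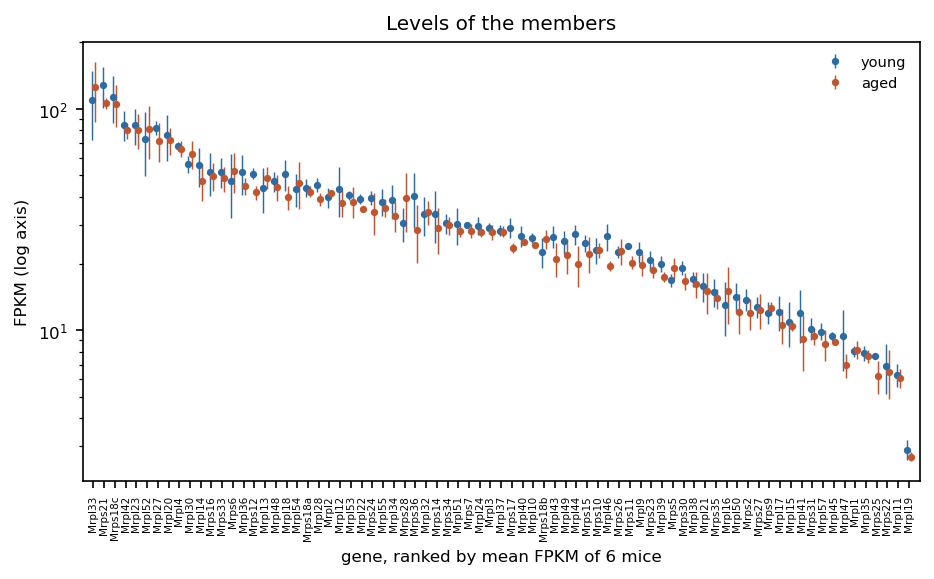
FPKM of each of the 77 members in young and aged ECs (points are the means of 3 mice, bars the SD, logarithmic axis), ranked by the mean over 6 mice. The levels fall from 118 FPKM for Mrpl33 to 2.79 FPKM for Mrpl19 without a break into classes, and the bars of the ages overlap for most genes.

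The comparison of aged with young ECs asked whether the transcripts for the mitochondrial ribosome change with age. Most members were slightly lower in aged ECs, and no member passed the test. The fitted log2 fold change of aged over young ECs was below 0 for 63 of 77 members (81.8%), against 48.9% of all genes tested, and its median was -0.088, against 0.0098 for all genes tested. Among the Mrpl genes 39 of 48 were below 0, with a median of -0.083, and among the Mrps genes 24 of 29, with a median of -0.091. The lower and upper quartiles were -0.21 and -0.024, 13 were beyond 0.25 in either direction, and none was beyond 0.5. Under the 18 other settings the median stayed below 0, from -0.18 to -0.026, and 47 to 67 members were below 0. Single mice moved this median by more than 1.5 times, since it was -0.18 without young 3, -0.15 without the 131-week-old mouse and -0.049 without young 1. It was also -0.17 with sample weights and -0.026 when libraries were scaled by their totals only, a scaling that moved the median of all genes to 0.075.

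By edgeR's quasi-likelihood test, 0 of 77 members had a Benjamini-Hochberg adjusted p below 0.05, and 0% of all genes tested did. The smallest adjusted p was 0.371 among the members and 0.0735 among all genes. At an unadjusted p below 0.05, 2 members were lower in aged ECs, 2.60% of the members against 4.32% of all genes, and 0 were higher, against 8.32% of all genes. By DESeq2's Wald test, 0 members passed at an adjusted p below 0.05, against 4.42% of all genes with an adjusted p, and 3 members were lower at an unadjusted p below 0.05, 3.9% of the members against 5.21% of all genes. The standard errors of the log2 fold changes were 0.13 to 0.34, with a median of 0.18. The 95% interval lay within a 2-fold change in both directions for 75 of 77 members and within a 1.5-fold change for 40. For 2 members, Mrps25 and Mrpl46, the interval left out 0.

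**Figure D2:**
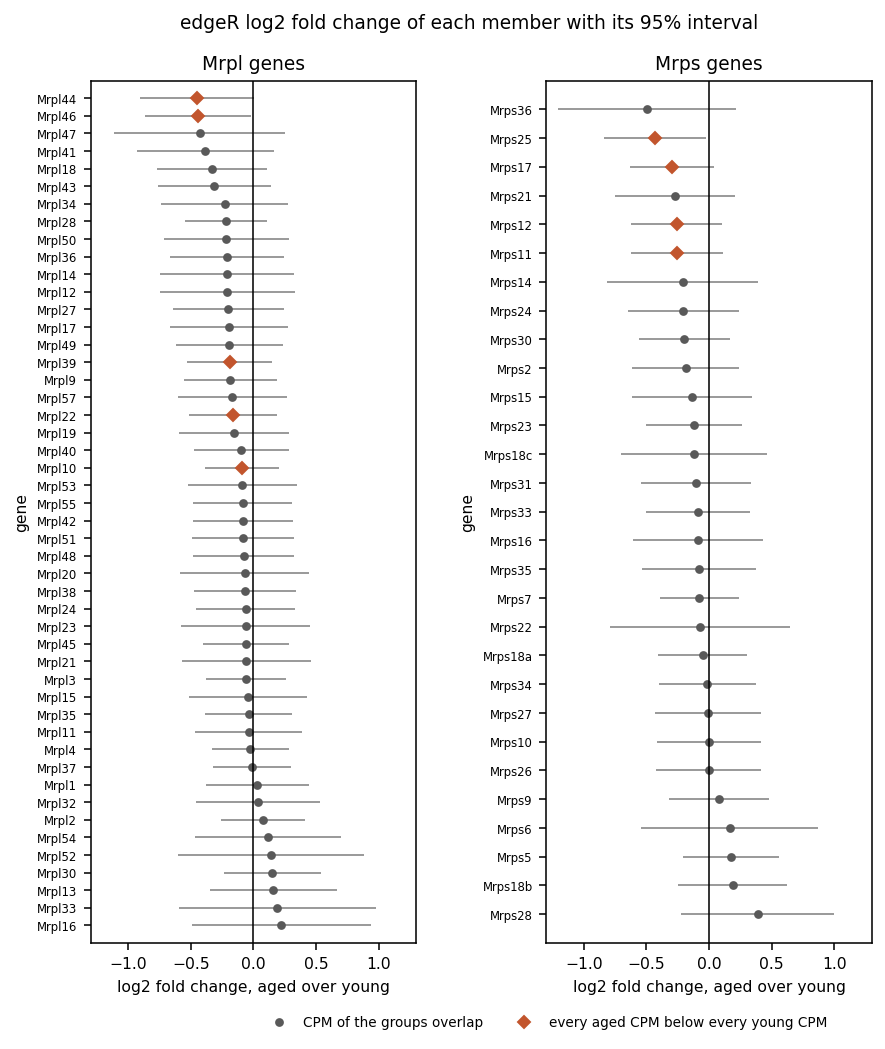
Fitted log2 fold change of aged over young ECs for each Mrpl and Mrps gene (points) with its 95% interval (lines), 3 mice per age. Diamonds are the 9 members whose groups did not overlap, and all 9 lie left of 0. The intervals of all but 2 members, Mrps25 and Mrpl46, include 0.

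In 9 members (11.7%) each aged mouse had a lower CPM than each young mouse, against 8.33% of all genes tested, and in 0 members each aged mouse was higher, against 9.62%. The 9 were Mrps25, Mrpl46, Mrpl44, Mrps17, Mrps12, Mrps11, Mrpl39, Mrpl22 and Mrpl10, and the same 9 were separated in the FPKM table. All 77 members had the same sign of change in both tables. The number of separated members depended on the libraries, and groups of fewer mice are also separated more easily. Without young 3 it was 30 (39%), against 15.9% of all genes tested in that setting. Without the 131-week-old mouse it was 18 (23.4%), against 16% of all genes, and without both young 3 and the 127-week-old mouse 32 (41.6%), against 22.4% of all genes.

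The smallest p belonged to Mrps25 and Mrpl46. Mrps25 encodes a small subunit protein without a bacterial counterpart, in which variants cause a human mitochondrial disease. Its CPM were 24.5, 24.8 and 20.3 in young and 17.2, 18.9 and 15.4 in the 127-, 131- and 136-week-old mice. Every aged value lay below the lowest young value, by a gap smaller than the spread among the young mice. The log2 fold change was -0.44 ± 0.17 (SE), with an unadjusted p of 0.039 and an adjusted p of 0.371 in edgeR's test, and with adjusted p of 0.207 to 0.736 under the other settings. Mrps25 lies in mm9 at chr6:92119519-92134027 on the minus strand, and 3533 of its exonic bases are shared with Nr2c2 on the opposite strand. It also has a copy in the genome that is 98.0% identical. Nr2c2, which encodes a nuclear receptor, had a log2 fold change of -0.24 ± 0.21 (SE), and its groups overlapped. Neither the labels nor the methods say whether the reads were counted by strand, so that the gene of reads in the shared bases is uncertain.

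Mrpl46 encodes a protein of the central protuberance, the crown of the large subunit that faces the small one. Its CPM were 26.3, 23.4 and 19.3 in young and 15.8, 18.2 and 16.9 in aged ECs. Young 3 was the lowest of the young mice, and the 131-week-old mouse came within 1.14 CPM of it. The log2 fold change was -0.44 ± 0.18 (SE), with an unadjusted p of 0.043 and an adjusted p of 0.379 by edgeR. Mrps11, the head-to-head neighbour of Mrpl46, encodes a protein of the platform of the small subunit. Its CPM were 21.2, 21.1 and 20.6 in young and 15.9, 18.2 and 18.6 in aged ECs, and the young mice lay closer together than for any other of the 9 genes. The log2 fold change of Mrps11 was -0.25 ± 0.16 (SE), with an adjusted p of 0.565 by edgeR. In the mm9 annotation Mrpl46 (chr7:85920122-85928417, minus strand) and Mrps11 (chr7:85928005-85937875, plus strand) share 173 exonic bases, and how reads there were assigned is not given in the sources used here.

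Mrpl44 encodes a protein near the exit of the nascent chain tunnel with the fold of an RNase III enzyme, and is mutated in a human cardiomyopathy. Its CPM were 33.2, 38.5 and 30.7 in young and 29.7, 25.2 and 19.9 in the 127-, 131- and 136-week-old mice. The 127-week-old mouse was next to young 3, and the 136-week-old mouse was lowest. The log2 fold change was -0.45 ± 0.19 (SE), with an unadjusted p of 0.051 and an adjusted p of 0.399 by edgeR. Mrpl44 (mm9 chr1:79772593-79778020, plus strand) shares 126 exonic bases with Wdfy1 on the opposite strand, whose log2 fold change was -0.0015.

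Mrps17 and Mrps12 are counterparts of bacterial S17 and S12. S17 binds the ribosomal RNA early in the assembly of the small subunit, and S12 lies in the decoding centre. The CPM of Mrps17 were 35.7, 31.9 and 30.9 in young and 27.1, 28.0 and 25.1 in aged ECs. The groups of Mrps17 were 2.87 CPM apart, and its log2 fold change was -0.30 ± 0.14 (SE) with an adjusted p of 0.454 by edgeR. The CPM of Mrps12 were 26.5, 26.3 and 23.3 in young and 20.8, 22.9 and 19.7 in aged ECs. Here young 3 and the 131-week-old mouse nearly met, and the log2 fold change was -0.26 ± 0.16 (SE) with an adjusted p of 0.551. Mrps17 (mm9 chr5:130221372-130224750, plus strand) shares no exonic base with another gene and has no close copy in the genome. Mrps12 (mm9 chr7:29524660-29526839, minus strand) starts 171 bases from Sars2, the mitochondrial seryl-tRNA synthetase gene on the opposite strand. The log2 fold change of Sars2 was -0.35 ± 0.28 (SE), and its groups overlapped.

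The other 3 separated members are large subunit genes with smaller differences. Mrpl39, which encodes a protein near the tunnel exit, had 34.1 ± 3.18 CPM in young and 29.9 ± 1.53 CPM in aged ECs. Mrpl22, whose bacterial counterpart lines the tunnel, had 22.1 ± 1.40 CPM in young and 19.8 ± 0.377 CPM in aged ECs, and has a copy that is 97.5% identical. Mrpl10, whose product holds the stalk, had 39.8 ± 1.75 CPM in young and 37.4 ± 0.622 CPM in aged ECs. The log2 fold changes of these genes were -0.19, -0.16 and -0.089, and their adjusted p by edgeR were 0.652, 0.728 and 0.836. In Mrpl39 the lowest young value (31.1 CPM) and the highest aged value (31.0 CPM) were nearly equal. In Mrpl10 the lowest young value was 38.3 CPM and the highest aged value 38.1 CPM, a gap of 0.478% of the young mean.

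**Figure D3:**
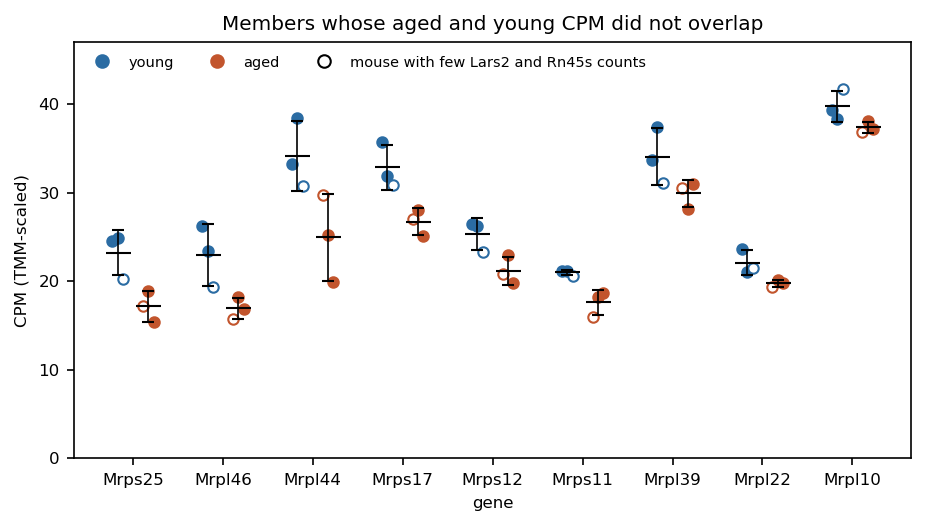
CPM of the 9 members whose groups did not overlap, in order of p. Points are single mice, open points are young 3 and the 127-week-old mouse, which had few Lars2 and Rn45s counts, and bars are the mean and SD of 3 mice. The open young point is the lowest young point in 7 of the 9 genes.

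Other members with low values in aged ECs had overlapping groups. The lowest log2 fold change was that of Mrps36, -0.49 ± 0.30 (SE) with an adjusted p of 0.562 by edgeR. Despite its symbol, Mrps36 is now known to encode a subunit of the alpha-ketoglutarate dehydrogenase complex. Its CPM were 25.9, 23.3 and 14.1 in young and 12.7, 20.2 and 12.1 in aged ECs, so that young 3 lay among the aged mice and the 131-week-old mouse between the young ones. Mrps36 has a copy in the genome that is 99.7% identical, and reads of such copies can be assigned to either place. Mrpl18, which encodes a protein of the central protuberance, had 43.7, 43.9 and 31.5 CPM in young and 29.9, 36.1 and 28.6 CPM in aged ECs. Mrpl41, which encodes a large subunit protein without a bacterial counterpart, had 22.4, 19.2 and 27.7 CPM in young and 15.1, 22.6 and 15.5 CPM in aged ECs. Mrpl43, of the same kind, had 28.7, 31.0 and 23.9 CPM in young and 23.04, 25.8 and 18.3 CPM in aged ECs. In each of these 3 genes only the 131-week-old mouse reached into the young range. Their log2 fold changes were -0.33, -0.38 and -0.31 with adjusted p of 0.524, 0.555 and 0.563 by edgeR. Mrps21, the second highest member by FPKM, had a log2 fold change of -0.27 ± 0.20 (SE).

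Of the 14 members with higher fitted levels in aged ECs, Mrps28 had the largest log2 fold change, 0.39 ± 0.26 (SE) with an adjusted p of 0.602 by edgeR. Its CPM were 19.5, 15.6 and 13.4 in young and 16.3, 18.8 and 28.3 in aged ECs, and the 136-week-old mouse alone lay above the young range. Mrps5, whose lower expression has been tied to a longer lifespan across mouse strains, had 21.8, 20.04 and 22.9 CPM in young and 22.3, 23.4 and 27.5 CPM in aged ECs. The aged mice of Mrps5 were at or above the upper part of the young range, and the log2 fold change was 0.18 ± 0.16 (SE) with an adjusted p of 0.725. Mrpl16, a neighbour of the tRNA binding sites, had 16.4, 12.2 and 9.05 CPM in young and 10.0, 16.3 and 17.6 CPM in aged ECs, with a log2 fold change of 0.22 ± 0.30 (SE). Mrpl33, Mrpl13, Mrpl30 and Mrpl2 had log2 fold changes of 0.19, 0.16, 0.15 and 0.077, and Mrps9 one of 0.078, and all groups overlapped. Mrps6 had 29.3, 30.8 and 15.2 CPM in young and 23.04, 26.1 and 35.4 CPM in aged ECs, a spread in which young 3 was lowest and the 136-week-old mouse highest. Mrps6 shares 696 exonic bases with Slc5a3, the myo-inositol transporter gene on the same strand.

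The direction of single members was often not settled by the settings. Over the fit described and the 18 others, 34 members were below 0 in each and 7 above 0 in each. The 7 were Mrpl2, Mrpl16, Mrpl30, Mrps5, Mrps9, Mrps18b and Mrps28. All 9 separated members and Mrps36 were among the 34. The smallest adjusted p of any member under any of these settings was 0.207.

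The 3 homologues of bacterial S18 take different places in the mitochondrial ribosome, with Mrps18b and Mrps18c in the small subunit and Mrps18a, like Mrps30, in the large subunit. Mrps18a had 29.7, 33.2 and 27.1 CPM in young and 27.3, 30.9 and 28.6 CPM in aged ECs. Mrps18b had 23.2, 20.4 and 16.6 CPM in young and 24.6, 20.4 and 23.5 CPM in aged ECs. Mrps18c had 42.5, 38.2 and 25.3 CPM in young and 25.9, 40.5 and 31.1 CPM in aged ECs. The groups overlapped in all 3 genes, with log2 fold changes of -0.052, 0.19 and -0.12 and adjusted p of 0.935, 0.740 and 0.901 by edgeR. Mrps18b shares 638 exonic bases with a gene on the opposite strand and has a copy that is 99.9% identical. Mrps30 had 27.36 ± 2.197 CPM in young and 23.9 ± 2.07 CPM in aged ECs, a log2 fold change of -0.20.

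When the members were grouped by the place of their products, each place had its median below 0. In the stalk and its base 4 of 5 members were below 0, with a median of -0.088, and Mrpl12, which also binds the mitochondrial RNA polymerase, had 33.8 ± 8.81 CPM in young and 29.2 ± 4.25 CPM in aged ECs. Around the tunnel exit 7 of 7 were below 0, and 7 and 5 within the libraries with many and those with few Lars2 and Rn45s counts, with a median of -0.16 and with the separated genes Mrpl44, Mrpl39 and Mrpl22. Mrpl45 of this region, which anchors the ribosome to the inner membrane, had 21.7 ± 1.09 CPM in young and 20.9 ± 0.165 CPM in aged ECs, a log2 fold change of -0.059. In the central protuberance 7 of 7 were below 0, and 7 and 4 within these sets of libraries, with a median of -0.095 and Mrpl46 as the separated gene. The 46 members with a bacterial counterpart and the 26 without one had medians of -0.087 and -0.085, with 35 and 24 genes below 0. Within the libraries with many of these counts 36 and 23 of them were lower in aged ECs, and within those with few 22 and 16. In the libraries with few of these counts the medians were 0.010 and -0.028. Of all genes tested, 48.9% were below 0 and 8.33% had separated groups with lower aged values. No group of members was tested against another.

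The values by mouse did not follow age alone. The log2(CPM + 1) of each member was taken against its own mean over the 3 young mice. The median member was at 0.12, 0.067 and -0.17 in young 1, 2 and 3. In the 127-, 131- and 136-week-old mice it was at -0.18, 0.020 and -0.11. Thus young 3 stood with the 127-week-old mouse, the other library with few Lars2 and Rn45s counts, and the 131-week-old mouse stood near young 2. Young 1 had the highest CPM in 37 members, while the lowest CPM was in young 3 for 22, in the 127-week-old mouse for 21 and in the 136-week-old mouse for 20. The CPM of all members summed to 2337, 2237 and 1882 in young and to 1867, 2141 and 1988 in aged ECs. The sums overlapped between ages, with 2152 ± 239 in young and 1999 ± 138 in aged ECs, a ratio of 0.929.

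**Figure D4:**
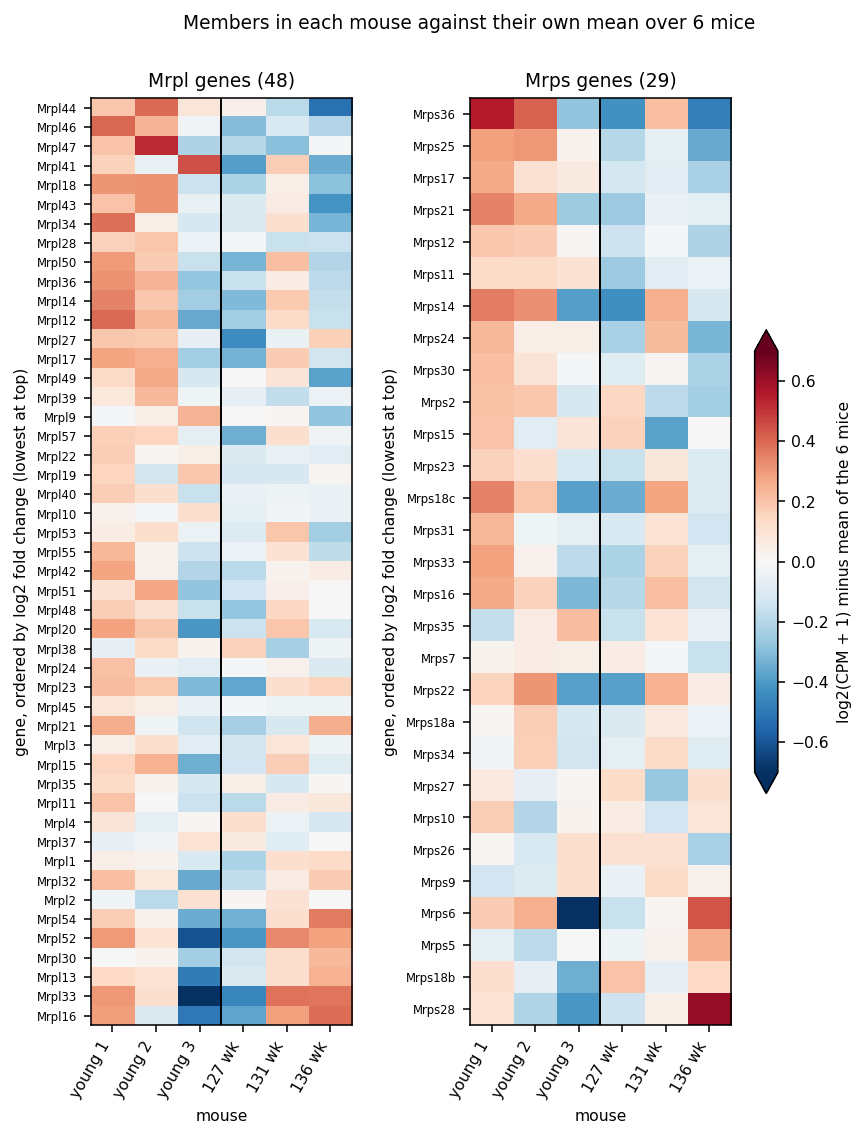
log2(CPM + 1) of each member in each mouse minus the mean of the 6 mice, for the Mrpl genes (left) and the Mrps genes (right), ordered by log2 fold change. Red is above and blue below the mean, and the vertical line parts young from aged mice. The columns of young 3 and the 127-week-old mouse are mostly blue, and that of young 1 is mostly red. Taken instead against the mean of the 3 young mice, their medians are -0.17, -0.18 and 0.12.

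Within the 4 libraries with many Lars2 and Rn45s counts, 63 of 77 members were lower in the 131- and 136-week-old mice than in young 1 and 2, with a median log2 difference of -0.12. Between young 3 and the 127-week-old mouse, 41 of 77 were lower in the aged mouse, with a median of -0.0061. Both sets gave the lower value to aged ECs in 36 members and the higher value in 9. The difference between ages was thus seen in 1 set of libraries and was close to 0 in the other, which holds 1 mouse per age. Among the 9 separated members, Mrpl46 had differences of -0.48 and -0.28 in the sets with many and few of these counts, Mrps25 of -0.51 and -0.23, Mrps11 of -0.19 and -0.35, and Mrpl44 of -0.65 and -0.047. With a term for the set of libraries in edgeR's model, 63 members were below 0 with a median of -0.081, 0 passed at an adjusted p below 0.05, and 4 were lower at an unadjusted p below 0.05, 5.19% of the members against 6.58% of all genes.

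The median difference between the sets of libraries was larger in size than the -0.088 between ages in the fit described. It was smaller than the age medians of -0.17 with sample weights and -0.18 without young 3, and no test compared them. The members had a median log2 difference of -0.15 in the libraries with few against those with many of these counts, and 60 of 77 were lower. In 31 members (40.3%) both young 3 and the 127-week-old mouse lay below all other mice, against 14.1% of all genes tested. The largest such differences included those of Mrpl33 (-0.88), Mrps6 (-0.66) and Mrpl16 (-0.65), whose standard errors between ages, 0.30 to 0.34, were among the widest. The difference between the sets was also larger for genes with short exon sequence. For the 14 members with up to 1000 exonic bases the median difference was -0.35, against -0.26 for all genes of that length, and for the 29 members of over 1000 and up to 2000 bases it was -0.15, against -0.074. For the 25 members of over 2000 and up to 5000 bases it was -0.11, against -0.020, and for the 9 longer members -0.13, against 0.051. Between ages the medians of the members in these classes, from short to long, were -0.089, -0.12, -0.065 and -0.047. Those of all genes were -0.0099, 0.0076, 0.013 and 0.013. The part of transcript length and library composition in the comparison of ages was not tested.

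The remaining proteins of the mitochondrial ribosome that carry other symbols were followed from a list of 6 genes. Of these 5 were below 0 and 1 above, and 0 had an adjusted or unadjusted p below 0.05 by edgeR or DESeq2. Dap3, a GTP-binding protein of the small subunit, had 27.3, 32.1 and 26.3 CPM in young and 33.1, 28.7 and 37.9 CPM in aged ECs, a log2 fold change of 0.22 ± 0.17 (SE). Chchd1, also of the small subunit, had 18.8, 17.8 and 8.83 CPM in young and 11.6, 13.2 and 10.5 CPM in aged ECs, a log2 fold change of -0.36 ± 0.30 (SE). The groups overlapped in both genes, and young 3 was the lowest mouse for each of them. Aurkaip1, Ptcd3, Gadd45gip1 and Ict1 had log2 fold changes of -0.11, -0.11, -0.073 and -0.033.

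The genes that build the ribosome or work with it were read from 4 further lists, and 0 of their genes had an adjusted p, or an unadjusted p, below 0.05 in edgeR's test or in DESeq2's. Of all genes tested, 12.6% had an unadjusted p below 0.05 and 0% an adjusted one by edgeR, and 4.42% had an adjusted p below 0.05 by DESeq2. Of 26 assembly factors 18 were below 0, with a median of -0.060. Ftsj2, a methyltransferase of the large ribosomal RNA, had 6.25, 8.57 and 6.69 CPM in young and 4.85, 5.87 and 4.31 CPM in aged ECs, whereas Rnmtl1, another methyltransferase of the same RNA, had 5.99, 5.19 and 4.67 CPM in young and 8.08, 6.34 and 6.54 CPM in aged ECs. The groups did not overlap in either gene, in opposite directions, with log2 fold changes of -0.52 ± 0.26 (SE) and 0.40 ± 0.24 (SE). Ddx28, an RNA helicase, and Mettl15, a methyltransferase of the small ribosomal RNA, had log2 fold changes of -0.29 and 0.21.

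Of 16 mitochondrial translation factors all 16 were below 0, with a median of -0.10 and the value nearest to 0 at -0.0047. Within the libraries with many and those with few Lars2 and Rn45s counts, 13 and 9 of the 16 were lower in aged ECs. Mtif3, an initiation factor, had 15.4, 15.0 and 15.6 CPM in young and 13.3, 13.7 and 8.85 CPM in aged ECs, without overlap and with a log2 fold change of -0.36 ± 0.22 (SE). Taco1, an activator of translation of a cytochrome oxidase subunit, had a log2 fold change of -0.42 ± 0.35 (SE) with overlapping groups. Of 16 mitochondrial tRNA synthetases 12 were below 0, with a median of -0.085. Pars2, which charges the tRNA for proline, was lower in each aged mouse than in each young one, with a log2 fold change of -0.65 ± 0.39 (SE), while Nars2 and Yars2 had log2 fold changes of 0.18 and 0.095. Of 7 genes of mitochondrial transcription and its DNA 5 were below 0, with a median of -0.26. Peo1, which encodes the helicase of mitochondrial DNA replication, had 12.5, 12.2 and 13.7 CPM in young and 11.8, 10.6 and 8.16 CPM in the 127-, 131- and 136-week-old mice, without overlap and with a log2 fold change of -0.33 ± 0.21 (SE). Peo1 shares 97 exonic bases with Mrpl43 on the opposite strand. Tefm, the elongation factor of the mitochondrial RNA polymerase, had a log2 fold change of -0.34 ± 0.26 (SE), and Tfam, which packs the mitochondrial DNA, one of 0.098 ± 0.18 (SE). Mterf1b, of the family of mitochondrial transcription termination factors, had 0.633, 0.226 and 0.473 CPM in young and 0.929, 0.389 and 0.203 CPM in aged ECs, with overlapping groups and a log2 fold change of 0.19 ± 0.79 (SE).

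The members were set beside the cytosolic ribosomal proteins and the nuclear subunits of oxidative phosphorylation. Of 77 cytosolic ribosomal protein genes tested 73 had a log2 fold change above 0, with 0.18 as the median, but the median was 0.010 with 40 genes above 0 under sample weights and 0.038 with 48 above 0 without young 3. In 7 of them (9.09%) each aged mouse was higher than each young one, close to the 9.62% of all genes tested. Of 74 oxidative phosphorylation subunits 62 were below 0, with a median of -0.11, and in 0 of them were the groups separated, against 17.9% of all genes tested in either direction. Within the libraries with many and those with few Lars2 and Rn45s counts 65 and 38 of the 74 were lower in aged ECs. The complex I subunits Ndufs4 and Ndufb8 had log2 fold changes of -0.21 and -0.36, and Cox5a of complex IV and Cyc1 of complex III had values of 0.081 and 0.035. By edgeR and by DESeq2, 0 genes of both groups passed the adjusted threshold and 1 had an unadjusted p below 0.05, which was the cytosolic ribosomal protein gene Rpl4 in edgeR's test, named here after its value was seen. At this unadjusted level edgeR's test found 12.6% of all genes tested. The mitochondrial and the cytosolic ribosomal protein genes thus had medians of opposite sign in these libraries, and the difference between the gene groups was not tested. Both comparison groups followed the libraries more than the members did, with median differences between libraries with few and many Lars2 and Rn45s counts of -0.54 for the cytosolic genes and -0.63 for the subunits, against -0.15 for the members.

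**Figure D5:**
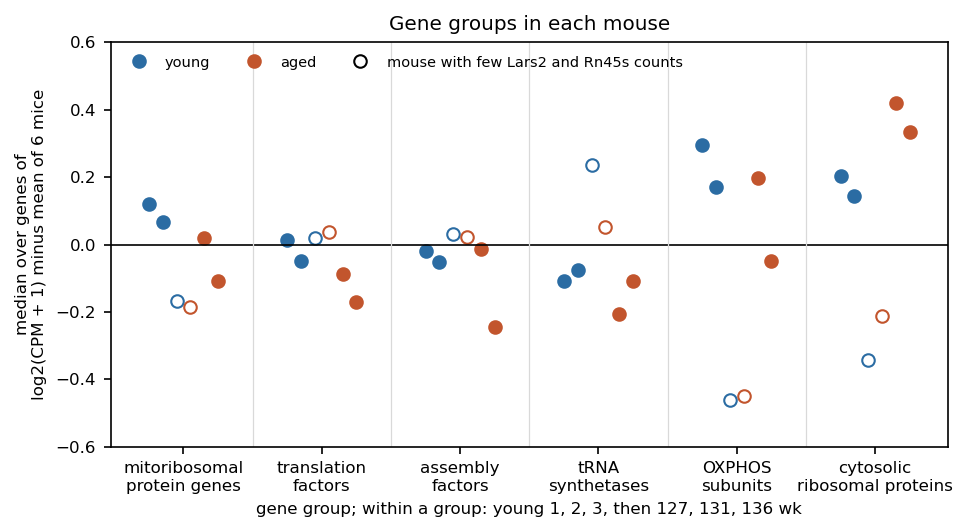
Each point is the median over the genes of a group of log2(CPM + 1) in 1 mouse minus the mean of the 3 young mice. Open points are young 3 and the 127-week-old mouse. The zero line is the young mean, although the axis label names 6 mice. The members range from -0.18 to 0.12, less than the oxidative phosphorylation subunits and the cytosolic ribosomal proteins, and in all 3 groups the open points lie below the filled points.

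Close copies and overlapping genes were checked over all members in the mm9 annotation, where the 77 genes lie on 17 chromosomes. Of the 77, 26 share exonic bases with another gene and 15 have a copy elsewhere in the genome that is at least 95% identical over at least 75 bases, the length of a read. The 40 members with neither had a median log2 fold change of -0.083, with 33 below 0, and 3 of them (7.5%) had separated groups with lower aged values, against 8.33% of all genes tested.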

How the data were processed

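RNA of sorted CD31+CD45- liver ECs was sequenced in 75-base single-end mode from TruSeq Sample Prep v2 libraries, 1 per mouse. According to the study's methods and the submitters' processing notes, bases were called with CASAVA 1.8.2 and reads were mapped to mm9 with TopHat2 2.1.0. The authors deposited unnormalized read counts per gene symbol. They also deposited FPKM values from Cuffnorm 2.2.1. The counting program, its annotation and its use of the strand are not given in the sources used here. Total counts ran from 23001556 to 31651817 per sample. A floor of 3 counts was at most 0.130 CPM and covers counting error only, since reads carried no molecular identifiers.

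A gene was tested if it reached 0.5 CPM in 1 sample or more. Aged mice (n = 3) were compared with young mice (n = 3) by the quasi-likelihood test of edgeR (4.0.16, R 4.3.3) after TMM scaling. P-values were adjusted over all 14612 genes by the method of Benjamini and Hochberg, with a threshold of 0.05. Within sets of libraries, differences were taken on log2(CPM + 1). No 2 samples of a group were alike enough to be one library, with a smallest chi-square per degree of freedom of 21.3.

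The members and gene lists were chosen with earlier results of these data known. Single members were named by a fixed rule. It took the 5 smallest p in each direction among Mrpl and among Mrps genes, the 3 highest and 3 lowest mean FPKM, every member with separated groups, and the members Mrpl10, Mrpl11, Mrpl12, Mrpl45, Mrps5, Mrps6, Mrps12, Mrps18a, Mrps18b, Mrps18c, Mrps30 and Mrps36. In the other lists of mitochondrial genes it took the 2 smallest p in each direction. Positions and overlaps came from the GENCODE annotation of mm9, where 76 members matched by symbol and 1 by an older symbol, and copies from alignment with minimap2 2.31. Of the alternatives tried, DESeq2 (1.42.0), limma (3.58.1) on log2 FPKM or with voom weights, other scalings, other filters, a term for the set of libraries and the removal of each mouse were planned. The removal of both young 3 and the 127-week-old mouse was added after the data were seen.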

Additional observations from a re-analysis of the deposited data

How the results depend on the processing

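Over 18 other settings 0 members had an adjusted p below 0.05. The counts at an unadjusted p below 0.05 moved. The 2 members that were lower in aged ECs at this level became 4 with a term for the set of libraries, 0 when libraries were scaled by their totals only, 4 and 5 by limma on log2(FPKM + 0.1) and log2(FPKM + 1), 5 with voom weights, 6 without both young 3 and the 127-week-old mouse (chosen after the data were seen) and 0 to 7 when single mice were left out. Of all genes, 2.37% to 6.58% were lower at this level over the 18 settings. Without young 3 the share of the members was 9.09%, against 3.85% of all genes, and without both mice 7.79%, against 3.12%. By limma it was 5.19% on log2(FPKM + 0.1), against 4.18%, and 6.49% on log2(FPKM + 1), against 4.23%. With voom weights it was 6.49%, against 6.12%. In every other setting, as in the fit described, the share of the members was below that of all genes. The 9 separated members that were lower became 5 under scaling by totals, 32 without both mice, and 9 to 30 without single mice, where 5.51%, 22.4%, and 10.9% to 16% of all genes were separated and lower. The 0 that were higher became 1, 7, and 0 to 5 under the same settings, in which 11.8%, 23.1%, and 12.3% to 18.5% of all genes were separated and higher. The median of all members stayed below 0 in all 18 settings, but ran from -0.18 without young 3 to -0.026 under scaling by totals.

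Among single members named above, 378 of 384 log2 fold changes kept their direction under the settings that leave out no single mouse. With voom weights those of Mrpl13, Mrpl33 and Mrps6 turned to -0.0042, -0.086 and -0.085. With scaling by totals those of Mrpl11, Mrpl45 and Mrps18a turned to 0.021, 0.0066 and 0.010. Without single mice the log2 fold changes ran from -0.023 to 0.27 for Mrpl13, from -0.064 to 0.43 for Mrpl33, from -0.092 to 0.34 for Mrps6, from -0.12 to 0.065 for Mrpl11, from -0.12 to 0.027 for Mrps18a, from -0.31 to 0.036 for Mrps18c and from -0.27 to 0.11 for Mrps22. The cause of these moves was not tested.

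No paired analysis was run, because the labels give no pairs of mice and the study's methods describe independent samples. With 3 mice per age and standard errors of 0.13 to 0.34, differences as small as the median of the members were not detectable for single genes. The set of libraries with few Lars2 and Rn45s counts holds 1 mouse per age and gives no spread of its own.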

Other observations

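Markers of other liver cells moved in these libraries beside the members, and are given here for the lists not described above. The 4 cholangiocyte markers summed to 85.8 to 102 CPM in young and 182 to 228 CPM in aged ECs, without overlap, and all 4 had higher fitted levels in aged ECs. The 7 T and NK cell markers summed to 6.96 to 9.18 CPM in young and 18.5, 9.88 and 33.1 CPM in the 127-, 131- and 136-week-old mice. The 8 macrophage markers summed to 105 to 124 CPM in young and 216, 37.5 and 516 CPM in aged ECs, and the 4 B cell markers to at most 1.23 CPM in young and 1.51, 0.739 and 8.49 CPM in aged ECs. The 7 stellate and mural markers summed to 249.5, 158 and 56.8 CPM in young 1, 2 and 3 and to 98.7, 112 and 197 CPM in aged ECs, with the lowest sums in the 2 libraries with few Lars2 and Rn45s counts. The 6 cell cycle markers summed to 138 to 184 CPM in young and 142 to 190 CPM in aged ECs, with overlap. By edgeR 0 of the markers in these lists passed at an adjusted p below 0.05, and an unadjusted p below 0.05 was found for 5 T and NK cell markers and for 1 macrophage, 1 stellate and mural, 1 cholangiocyte and 1 cell cycle marker. By DESeq2 2 T and NK cell markers and 1 cholangiocyte marker were called higher and 1 stellate and mural marker lower. Over all genes, 8.32% were higher and 4.32% lower in aged ECs at an unadjusted p below 0.05 by edgeR, and DESeq2 called 4.42%.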
